A study of Mus musculus with 8 samples.

Results

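The genes described here are the integrins, the Icams and the tetraspanins of mouse dendritic cells in hypoxic culture, read after exposure to stem cell factor (SCF) or after medium alone. They were chosen by gene symbol alone. All genes with a single-symbol probe set were taken whose symbol begins with Itga, is Itgb or Icam followed by 1 digit, or begins with Tspan and a digit, together with Cd9, Cd37, Cd53, Cd63, Cd81, Cd82 and Cd151. The rule found 56 genes of the 22180 that the array names by a single-symbol probe set, namely 25 integrin subunits, 4 Icams and 27 tetraspanin entries. One of the tetraspanin entries, Tspan2os, is an antisense transcript and encodes no tetraspanin. Each gene was represented by its brightest probe set, and 3 of the 56 had more than 1.

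Integrins are paired receptors of an alpha and a beta subunit that span the cell membrane and bind matrix proteins or proteins on other cells. In leukocytes they are held in a bent, resting form and are switched on from inside the cell when talin and kindlin bind the beta tail, a step that the small GTPase Rap1 controls. Icams are immunoglobulin-family ligands of the beta2 integrins, and tetraspanins are small proteins with 4 membrane passes that gather integrins, antigen-presenting molecules and proteases into membrane domains. In dendritic cells these families serve adhesion to T cells, migration and the uptake of complement-coated particles, and the alpha subunit CD11c (Itgax) is the usual surface marker of the cells.

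All cells came from the bone marrow of female wild-type C57BL/6 mice and were grown for 7 days at normal oxygen in GM-CSF, a cytokine of myeloid growth, before purification on anti-CD11c beads. In each of 4 experiments, named BC, D2, E and I, the purified cells were moved to 2% oxygen for 2 days, still in 20 ng/ml GM-CSF, and either then received SCF at 100 ng/ml for 6 hours (SCF) or did not (medium). All arrays used here thus share hypoxia and GM-CSF, and the cells were selected for the product of Itgax, which is a member here. The 8 cultures, 4 with SCF and 4 in medium, were read on 1 Affymetrix array each, as RMA intensities that were put on a log2 scale. The number of arrays limits the precision, and arrays were compared as pairs within an experiment. Intensities of different probe sets cannot be set against each other, so a level below is compared only with the same gene on other arrays and with the intensity filter.

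**Figure D1:**
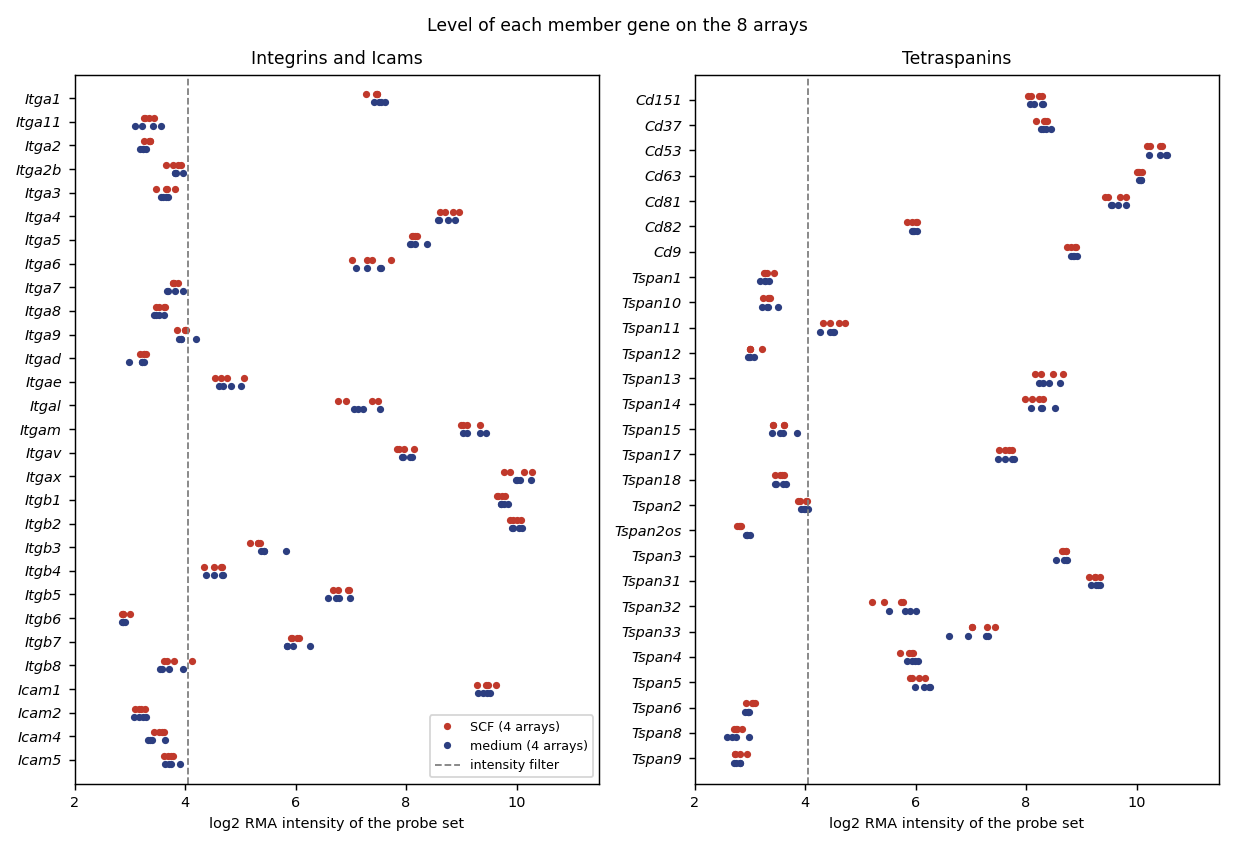
Log2 RMA intensity (horizontal axis) of each of the 56 member genes on the 4 SCF arrays (red) and the 4 medium arrays (blue), 1 point per array, with the intensity filter of 4.05 as a dashed line. In the 33 genes that were tested the means stood at 4.48 or more, and in the other 23 at 3.98 or less, so the filter falls in a gap.

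A gene was tested where its mean log2 intensity over the 8 arrays reached 4.05, the median over all probe sets with a gene symbol. This left 33 of the 56 members, namely 15 integrin subunits, 1 Icam and 17 tetraspanins. The faintest member tested was Tspan11 at a mean of 4.48, and the brightest left out was Itga9 at 3.98. The 23 that were too dim were 10 integrins (Itga2, Itga2b, Itga3, Itga7, Itga8, Itga9, Itga11, Itgad, Itgb6 and Itgb8), 3 Icams (Icam2, Icam4 and Icam5) and 10 tetraspanin entries (Tspan1, Tspan2, Tspan2os, Tspan6, Tspan8, Tspan9, Tspan10, Tspan12, Tspan15 and Tspan18). The table gives no detection call, so a dim probe set is not evidence that the gene is silent.

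SCF against medium asked whether 6 hours of SCF altered the adhesion receptors of these cells. No member passed the test, and their differences were small. In limma with experiment as a block, 0 of 33 members had an adjusted p under 0.05 (smallest 0.945), where the share over all 12668 probe sets tested was 0%. A plain paired statistic also called 0 members. At an unadjusted limma p under 0.05 there were 3 members (9.09%), Itgb3, Tspan32 and Tspan5, all lower with SCF. Over all probe sets 4.21% passed that mark, 1.95% higher and 2.26% lower. Without experiment BC no member reached it. The 95% interval of the difference lay within 1.5-fold in both directions for 33 of 33 members, as for 99.7% of all probe sets. The outermost bounds were 0.698-fold, for Tspan32, and 1.26-fold, for Tspan33.

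The members' fitted differences lay more often below 0 than above it, in 25 of 33 (75.8%), where 49.5% of all probe sets did. Their median log2 difference was −0.03, beside 0.00077 over all probe sets. It was −0.01 without BC, −0.04 without D2 and −0.05 without E. The 4 experiments did not contribute alike. In BC 24 members lay below 0, where 52.1% of all probe sets did, and the median was −0.10. In D2 18 lay below 0 (48.7% of all probe sets), in E 20 (49.8%) and in I 18 (48.3%), with medians between −0.03 and −0.02. The difference had the same sign in 4 of 4 experiments for 5 members (15.2%, against 12.9% of all probe sets). Itga1, Itgb3, Tspan5 and Tspan32 were below 0 in each (12.1%, against 6.44% of all probe sets). Tspan33 was above 0 in each (3.03%, against 6.43%).

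**Figure D2:**
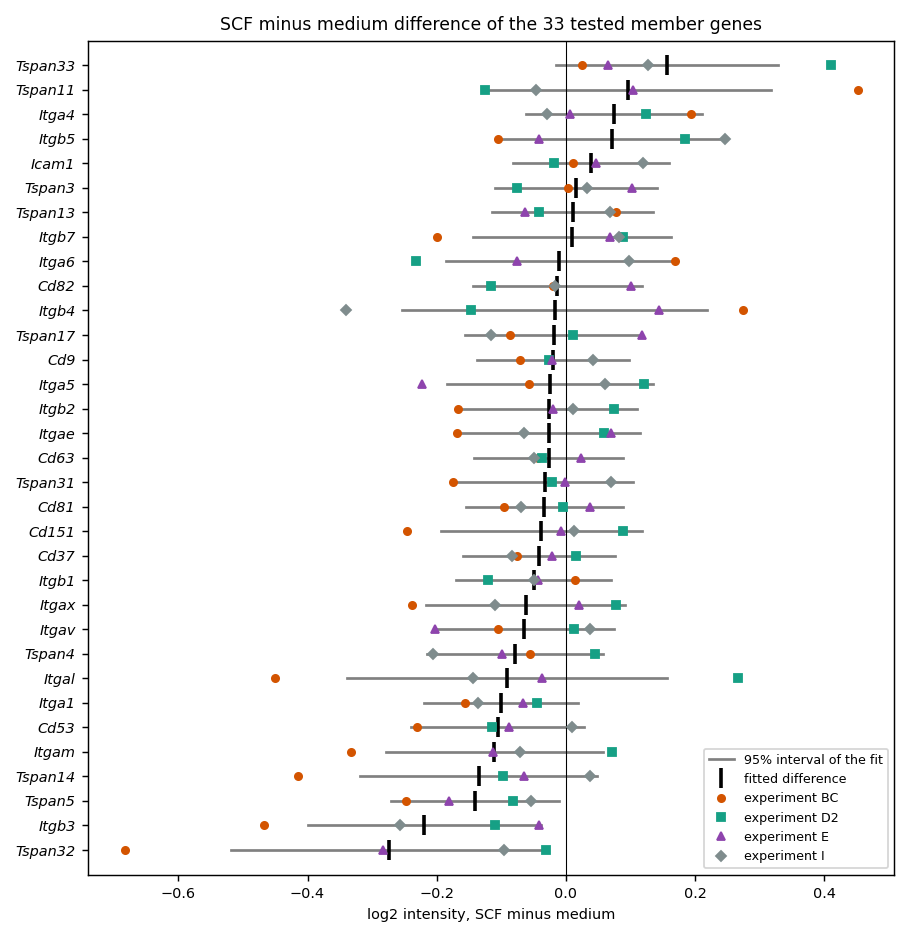
SCF minus medium difference in log2 intensity (horizontal axis) of the 33 tested members, ordered by the fitted difference. Coloured symbols are the 4 experiments, black ticks the fitted difference and grey lines its 95% interval. The intervals exclude 0 only in Itgb3, Tspan32 and Tspan5, and in Tspan32 experiment BC lies apart at −0.68.

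The beta2 integrins are the leukocyte integrins, in which the beta subunit Itgb2 (CD18) pairs with Itgal (CD11a, the receptor for Icam1), Itgam (CD11b, a receptor for complement fragments and fibrinogen), Itgax (CD11c, also a complement receptor) or Itgad (CD11d). Of these 5 genes 4 were tested and Itgad was too dim. None of the 4 passed, and all 4 fitted differences were below 0, between −0.11 and −0.03, where 49.5% of all probe sets lay below 0. Itgax measured 9.77, 10.14, 10.28 and 9.88 with SCF in BC, D2, E and I, against 10.01, 10.06, 10.26 and 9.98 in medium. The groups overlapped, and E was the highest in both. Itgam measured 8.998, 9.10, 9.34 and 9.04 with SCF against 9.33, 9.03, 9.45 and 9.11 in medium, a log2 difference of −0.11 (SE 0.07, 95% interval −0.28 to 0.06, limma adjusted p = 0.945). Its SCF values again overlapped those in medium, and without BC the difference was −0.04. Itgal measured 6.77, 7.39, 7.48 and 6.91 with SCF against 7.22, 7.12, 7.52 and 7.05 in medium. Its pairs disagreed most, at −0.45 in BC and 0.27 in D2, so that the fitted difference of −0.09 (SE 0.11) turned to 0.03 without BC and was −0.21 without D2. Itgb2 measured 9.97 ± 0.08 with SCF and 10.00 ± 0.09 in medium (SD, n = 4 each), a log2 difference of −0.03 (SE 0.06) that turned to 0.02 without BC.

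These 4 genes went up and down together over the arrays. Pearson's r over the 8 arrays was 0.98 between Itgax and Itgal, 0.94 between Itgam and Itgb2, and 0.75 at the lowest, between Itgax and Itgam, where the median over all 528 pairs of tested members was 0.09. Such likeness was not confined to the beta2 genes, since r was 0.98 between Cd151 and Itgb2 and 0.90 between Itgb2 and Tspan31. Other members were opposed to them, such as Itga4 to Itgax at −0.86. The 8 points share 4 experiments and their cells, so these values are a description. The median difference of the 4 genes was −0.29 in BC and 0.08 in D2, with −0.03 in E and −0.09 in I. The 11 markers of macrophages and monocytes that were tested had medians of −0.26 in BC and 0.12 in D2, with −0.05 in E and −0.07 in I. Of these 11 genes 10 had a fitted difference below 0, where 49.5% of all probe sets did, and none had an adjusted p under 0.05. Their summed linear intensity ranged from 3680 to 4740 with SCF and from 3940 to 5030 in medium, with the brightest genes adding most. None of the 11 was below the filter. Their part in the beta2 values was not tested. In RNA of whole cultures, fewer cells of a type and less RNA per cell cannot be told apart.

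**Figure D3:**
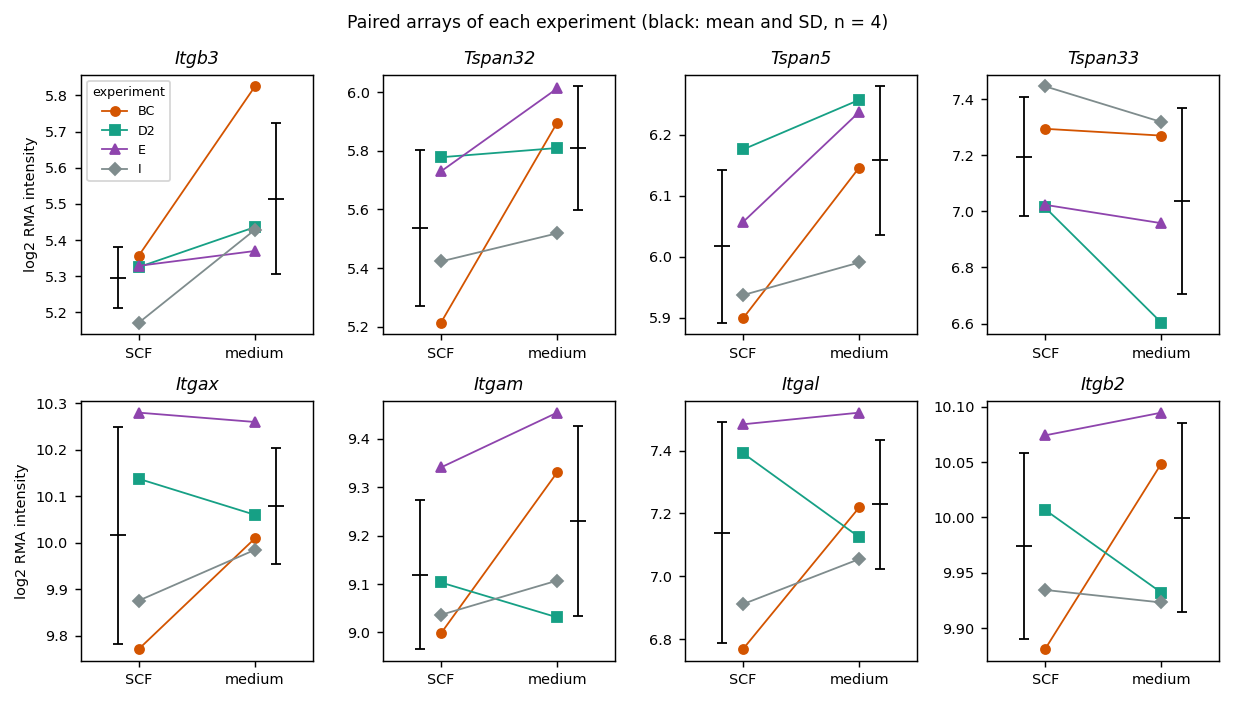
Log2 RMA intensity (vertical axis, not starting at 0) of 8 members in SCF (left) and medium (right), with a line for each experiment and the mean and SD of each group in black (n = 4). In Itgb3 all SCF arrays lie below all medium arrays, in the other 7 genes the groups overlap, and experiment E is the highest on both sides in the 4 beta2 genes of the lower row.

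Itgam, Itgax and Itgad lie next to each other in the genome, with 0 protein-coding genes between neighbours in RefSeq, yet Itgam and Itgax were far above the filter and Itgad, at 3.25 ± 0.05 with SCF and 3.17 ± 0.12 in medium, was below it. The start regions of Itgax, whose product the cells were selected for, and of its neighbour Itgam are printed here. Those of Tspan32 and Tspan33 are added because these genes had the largest fitted differences downward and upward. Each is the 300 bases from 250 before to 50 after the start, from RefSeq (GRCm38.p6), in the direction of transcription. Capitals mark GAGGAAG on either strand, the core of sites of PU.1, the ETS-family factor of myeloid cells. Itgam is at chr7:128062390-128062689, Itgax at chr7:128129300-128129599, Tspan32 at chr7:143004796-143005095 and Tspan33 at chr6:29693964-29694263, all on the + strand.
Itgam: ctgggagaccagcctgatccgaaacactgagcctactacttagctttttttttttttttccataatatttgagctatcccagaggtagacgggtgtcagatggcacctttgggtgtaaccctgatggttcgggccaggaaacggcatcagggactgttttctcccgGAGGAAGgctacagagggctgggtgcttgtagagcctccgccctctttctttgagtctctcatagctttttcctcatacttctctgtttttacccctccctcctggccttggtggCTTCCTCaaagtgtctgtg
Itgax: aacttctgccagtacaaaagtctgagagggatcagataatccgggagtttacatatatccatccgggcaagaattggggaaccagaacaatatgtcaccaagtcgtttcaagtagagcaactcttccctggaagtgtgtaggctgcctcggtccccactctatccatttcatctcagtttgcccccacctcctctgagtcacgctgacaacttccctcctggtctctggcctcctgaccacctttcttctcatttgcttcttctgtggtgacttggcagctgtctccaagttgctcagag
Tspan32: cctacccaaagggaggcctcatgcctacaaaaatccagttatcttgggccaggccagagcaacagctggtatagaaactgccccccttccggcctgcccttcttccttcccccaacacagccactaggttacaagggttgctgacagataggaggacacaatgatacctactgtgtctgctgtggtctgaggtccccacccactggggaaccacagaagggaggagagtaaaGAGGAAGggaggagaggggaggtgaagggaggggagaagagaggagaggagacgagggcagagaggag
Tspan33: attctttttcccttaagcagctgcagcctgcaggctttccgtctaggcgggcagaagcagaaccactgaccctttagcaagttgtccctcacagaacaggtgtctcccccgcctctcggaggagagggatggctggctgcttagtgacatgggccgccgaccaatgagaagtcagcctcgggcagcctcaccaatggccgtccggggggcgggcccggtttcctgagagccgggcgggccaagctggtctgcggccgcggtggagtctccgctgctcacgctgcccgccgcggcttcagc
Such a start region was available for 46 of the 56 members, and 12 of these (26.1%) held GAGGAAG, against 13.5% of 27025 genes' windows. ACGTG, the core of hypoxia response elements, was found on either strand in 4 of the 46 (8.7%), Cd37, Cd63, Itga9 and Tspan3, and in 19.7% of all windows. Such a match is not a site of binding, and a window without these letters says nothing of the factor.

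The beta1 integrins bind fibronectin, collagen and laminin, and with Itga4 also the vascular ligand Vcam1. The common subunit Itgb1 measured 9.71 ± 0.06 with SCF and 9.76 ± 0.06 in medium (SD, n = 4 each), a log2 difference of −0.05 (SE 0.05, limma adjusted p = 0.95). Itga4, which pairs with Itgb1 or Itgb7, measured 8.96, 8.70, 8.61 and 8.86 with SCF against 8.76, 8.57, 8.61 and 8.88 in medium, a difference of 0.07 (SE 0.06) that was 0.03 without BC. The fibronectin receptor subunit Itga5 was at −0.02 (SE 0.07), with −0.22 in E and 0.12 in D2, and it turned to 0.04 without E. Itga8 and Itga9 were too dim to be tested. None of these genes had groups that lay apart.

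Among the collagen receptor subunits only Itga1 was bright enough, while Itga2, its direct neighbour in the genome, and Itga11 were not. Itga1 measured 7.46, 7.47, 7.48 and 7.28 with SCF against 7.62, 7.52, 7.55 and 7.41 in medium. Each SCF array lay below the medium array of its own experiment, at differences of −0.16, −0.04, −0.07 and −0.14, although the groups overlapped. The log2 difference was −0.10 (SE 0.05, 95% interval −0.22 to 0.02, limma adjusted p = 0.945). Of the laminin receptors, Itga6 and Itgb4 were tested and Itga3 and Itga7 were not. Itga6 stood at −0.01 (SE 0.07), with pairs from −0.23 in D2 to 0.17 in BC.

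Itgav pairs with Itgb3, Itgb5, Itgb6 or Itgb8, receptors for proteins such as vitronectin and for latent TGF-beta, and Itgb3 also pairs with the platelet subunit Itga2b. Itgb3 was the integrin with the smallest p. It measured 5.36, 5.33, 5.33 and 5.17 with SCF against 5.83, 5.44, 5.37 and 5.43 in medium. All 4 SCF arrays lay below all 4 medium arrays, which held for 1 of 33 members (3.03%) and 0.971% of all probe sets. The log2 difference was −0.22 (SE 0.08, 95% interval −0.40 to −0.04), or 0.859-fold, and did not pass (limma adjusted p = 0.945). The medium array of BC was far above the others, and without BC the difference was −0.14. Its partner Itgav measured 7.95 ± 0.14 with SCF and 8.02 ± 0.09 in medium (SD, n = 4 each), a difference of −0.06 (SE 0.06). Itgb5 was at 0.07 (SE 0.07), above 0 in D2 and I and below 0 in BC and E. Itgb6 and Itgb8 were too dim, and so was Itga2b, at 3.81 ± 0.11 with SCF and 3.86 ± 0.07 in medium. Of the 5 platelet and megakaryocyte markers on the array 2 were tested, and Pf4 and Ppbp had fitted differences of 0.03 (SE 0.08) and 0.07 (SE 0.08).

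The beta7 integrins hold lymphocytes and some dendritic cells in the gut, through Itga4 on the vessel ligand Madcam1 and through Itgae (CD103) on epithelial E-cadherin. Itgb7 measured 6.06, 5.94, 6.02 and 5.93 with SCF against 6.26, 5.85, 5.96 and 5.84 in medium. BC lay at −0.20 while the other pairs lay between 0.07 and 0.09, and the fitted difference was 0.01 (SE 0.07, 95% interval −0.14 to 0.16). Itgae, a marker of one branch of conventional dendritic cells, measured 4.76 ± 0.22 with SCF and 4.78 ± 0.17 in medium (SD, n = 4 each), a difference of −0.03 (SE 0.06) that turned to 0.02 without BC.

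Of the Icams only Icam1, the ligand of CD11a and CD11b that inflammatory signals raise, was above the filter. It measured 9.48, 9.29, 9.45 and 9.63 with SCF against 9.47, 9.31, 9.40 and 9.51 in medium, so the groups overlapped. The log2 difference was 0.04 (SE 0.05, 95% interval −0.08 to 0.16, limma adjusted p = 0.96), and most of it came from I, without which it was 0.01. Icam4 and Icam5, which follow Icam1 in the genome with 0 protein-coding genes between, were below the filter, and so was Icam2, the Icam of resting leukocytes and endothelium, at 3.18 ± 0.08 with SCF and 3.19 ± 0.09 in medium.

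The tetraspanins that leukocytes are known for were all bright enough to be tested, 8 of 8. All 8 fitted differences were below 0, between −0.27 and −0.01, where 49.5% of all probe sets lay below 0. None of the 8 passed. Tspan32, also called Tssc6, restrains T cell responses in mice, and it had the largest fitted difference of any member. It measured 5.21, 5.78, 5.73 and 5.42 with SCF against 5.90, 5.81, 6.01 and 5.52 in medium. All pairs lay below 0, but at −0.68 in BC, −0.28 in E, −0.10 in I and −0.03 in D2, and the groups overlapped. The log2 difference was −0.27 (SE 0.10, 95% interval −0.52 to −0.03, limma adjusted p = 0.945), or 0.827-fold, and −0.14 without BC. Its direct neighbour in the genome, Cd81, a partner of integrins, measured 9.61 ± 0.18 with SCF and 9.64 ± 0.13 in medium (SD, n = 4 each), a difference of −0.03 (SE 0.05).

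Cd53, the pan-leukocyte tetraspanin, measured 10.19, 10.43, 10.46 and 10.24 with SCF against 10.42, 10.54, 10.54 and 10.23 in medium. The groups overlapped, and the difference of −0.11 (SE 0.06, 95% interval −0.24 to 0.03) was −0.06 without BC. Cd37, which in mouse dendritic cells supports migration, stood at −0.04 (SE 0.05) and Cd151, a close partner of laminin-binding integrins, at −0.04 (SE 0.07). Cd151 lay at −0.25 in BC and between −0.01 and 0.09 elsewhere, and it turned to 0.03 without BC. Cd63, of late endosomes and exosomes, had the narrowest range over experiments of the tested members, 1.03-fold, and measured 10.04 ± 0.03 with SCF and 10.07 ± 0.01 in medium (SD, n = 4 each). Its 95% interval was −0.14 to 0.09 on the log2 scale. Cd9, which is linked to class II traffic in dendritic cells, was at −0.02 (SE 0.05) and Cd82 at −0.01 (SE 0.06). Cd82 was above the filter while its neighbour Tspan18 was below it.

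The TspanC8 tetraspanins (Tspan5, Tspan10, Tspan14, Tspan15, Tspan17 and Tspan33) are partners of the protease Adam10. Tspan10 and Tspan15 were too dim, and none of the other 4 passed. Tspan5 measured 5.90, 6.18, 6.06 and 5.94 with SCF against 6.15, 6.26, 6.24 and 5.99 in medium. Every pair lay below 0 while the groups overlapped, and the log2 difference of −0.14 (SE 0.06, 95% interval −0.27 to −0.01, limma adjusted p = 0.945) stayed between −0.17 and −0.11 whichever experiment was left out. Tspan14 was at −0.14 (SE 0.08), and its BC pair of −0.41 set most of this, since it was −0.04 without that experiment. Tspan33 measured 7.29, 7.01, 7.02 and 7.45 with SCF against 7.27, 6.60, 6.96 and 7.32 in medium. It was above 0 in each pair, at 0.41 in D2 and between 0.02 and 0.13 elsewhere, and its groups overlapped. Its log2 difference was 0.16 (SE 0.07, 95% interval −0.01 to 0.33, limma adjusted p = 0.945), or 1.11-fold, and 0.07 without D2. Tspan5 and Tspan14 thus had fitted differences of the opposite sign to that of Tspan33, a contrast that was not itself tested.

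Of the other tetraspanins, Tspan3, Tspan4, Tspan11, Tspan13 and Tspan31 were tested, and their fitted differences lay between −0.08 and 0.10. Tspan13 measured 8.49, 8.26, 8.16 and 8.68 with SCF against 8.41, 8.31, 8.23 and 8.61 in medium. The groups overlapped, and its difference was 0.01 (SE 0.05).

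Genes that switch integrins on, anchor them or bind them also held none that passed. In limma 0 of 14 tested genes of integrin activation and linkage to actin, 0 of 17 of the Rap1 pathway, 0 of 12 outside-in kinases and adaptors, 0 of 13 ligands and counter-receptors and 0 of 10 tetraspanin partners passed the adjusted threshold. At an unadjusted limma p under 0.05 there were 1 higher and 1 lower among all tested genes of the 5 lists. Over all probe sets 1.95% were higher and 2.26% lower at that mark. The higher was Rap1gap2, a gene of a Rap1 inhibitor, at a log2 difference of 0.17 (SE 0.07), and the lower Emb, of the membrane protein embigin, at −0.26 (SE 0.08). Their next genes by p were Apbb1ip (RIAM, the Rap1 effector that recruits talin) at −0.08 (SE 0.06) and Hbegf at −0.17 (SE 0.10). Among the linkers Parvb was at −0.12 (SE 0.06) and Lims1 at −0.09 (SE 0.06). Among the kinases and adaptors Src was at 0.08 (SE 0.05) and Vav3 at −0.14 (SE 0.10). Among the ligands Tgfb1 was at −0.11 (SE 0.05) and F11r, the junctional ligand of CD11a, at −0.07 (SE 0.05). List medians lay between −0.03 and 0.03, beside 0.00077 over all probe sets. In the tetraspanin partners 9 of 10 fitted differences were below 0, and in the kinases and adaptors 9 of 12 were above it. Over all probe sets 49.5% lay below 0.

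The 4 experiments were compared by an F test of the experiment terms, which asks whether a gene's level differed between cultures by more than its 2 arrays of an experiment differ beyond the SCF term. In limma 0 of 33 members had an adjusted p under 0.05 (smallest 0.0571), where 3.35% of all probe sets had. At an unadjusted p under 0.05 there were 12 members (36.4%), where 24.2% of all probe sets passed. This call changed with the way variance is shared between genes, with the intensity filter and with a repeated normalization. With a variance prior that follows intensity, 9 of 33 members passed (27.3%, against 12.1% of all probe sets), namely Cd53, Cd81, Icam1, Itga4, Itga6, Itgam, Itgax, Tspan13 and Tspan33. At a stricter intensity filter 7 of 24 passed (29.2%, against 22% of all probe sets), and 6 of these were also among the 9, the other being Itgal. After a repeated quantile normalization 2 of 33 passed, Tspan13 and Tspan33, against 3.66% of all probe sets.

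The members that led this comparison had no common order of experiments. Tspan33 averaged 7.28 in BC and 7.38 in I but 6.81 in D2 and 6.99 in E, a range of 1.49-fold (limma adjusted p = 0.0612, or 0.0119 with the variance trend). Tspan13 had its highest mean, 8.64, in I and its lowest, 8.19, in E (adjusted p = 0.0571, or 0.00635 with the trend). Itga6 had its highest mean in BC, 7.64, and its lowest in E, 7.06 (adjusted p = 0.0816, or 0.0190 with the trend). Itgae and Cd81 stood highest in D2, at 5.04 and 9.81 (adjusted p = 0.0804 and 0.0972, or 0.0722 and 0.00799 with the trend). Itgal had a range of 1.43-fold, with means of 6.99, 7.26, 7.50 and 6.98 (adjusted p = 0.156, or 0.0562 with the trend and 0.0488 at the stricter filter, where it passed).

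**Figure D4:**
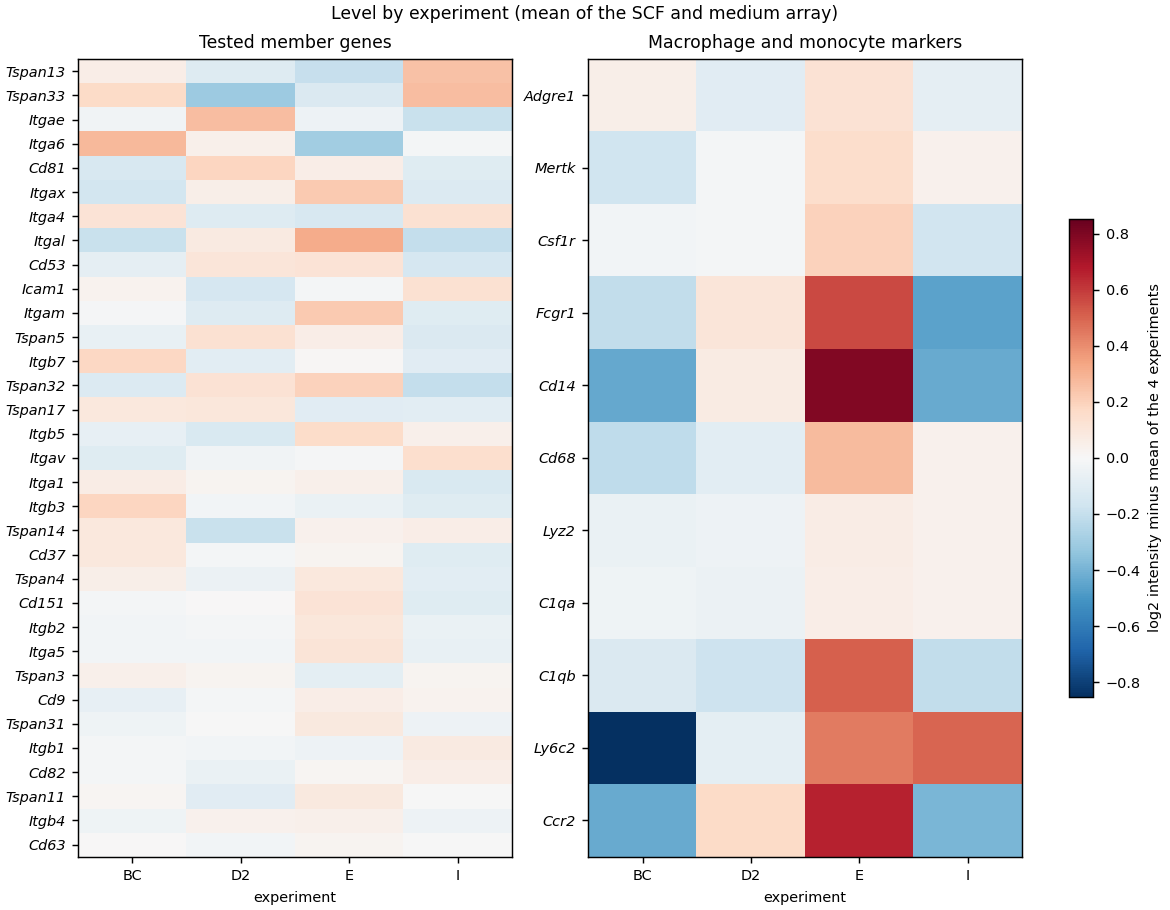
Mean of the SCF and the medium array of each experiment, in log2 intensity minus the mean of the 4 experiments (colour), for the 33 tested members in order of the F test (left) and for the 11 macrophage and monocyte markers (right), on a common scale. Some macrophage markers, such as Cd14 and Fcgr1, spread further than any member, while others, such as Lyz2 and C1qa, did not. Of the 11 markers 10 were highest in experiment E.

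In 15 of 33 members the highest experiment mean was that of E, where 24.4% of all probe sets were highest in E, and all 4 tested beta2 genes were among them. The macrophage and monocyte markers were highest in E in 10 of 11, and 5 of the 11 passed the F test. Some of them spread widely, as Fcgr1, with experiment means of 7.93, 8.25, 8.70 and 7.69, and Cd14, with 4.78, 5.29, 6.01 and 4.78. Others hardly did, as Lyz2, with 10.72, 10.73, 10.84 and 10.81, and C1qa, with 4.78, 4.76, 4.87 and 4.85. The part of these markers in the members' differences between experiments was not tested. The conventional dendritic cell markers were all above the filter (15 of the 15 on the array), among them the class II genes H2-Ab1 and H2-Aa and Zbtb46. Xcr1 was only just above it, at 4.17 with SCF and 4.17 in medium. Of the 15 markers 0 passed the F test. The summed linear intensity of these markers lay between 10700 and 11200 with SCF and between 10400 and 10900 in medium. The brightest probe sets add most to such a sum. A fitted difference above 0 was found in 14 of 15, where 49.5% of all probe sets lay below 0, and none passed (limma). The defining genes of T cells (Cd3e, Cd3d, Cd3g), B cells (Cd79a, Ms4a1) and mast cells (Fcer1a, Ms4a2) were below the filter. Other genes of the same lists were above it. Il7r of the T and NK cell list measured 10.12 with SCF and 10.18 in medium, and Pax5 of the B cell list 4.35 and 4.34. In the mast cell and basophil list Gata2 measured 5.06 and 5.19, and Cpa3 4.55 and 4.55. Of the markers on the array, 2 of 11 were tested for neutrophils, 2 of 10 for mast cells and basophils, 1 of 8 for T and NK cells, 1 of 5 for B cells, 1 of 6 for eosinophils, 2 of 8 for stroma and endothelium, 0 of 1 for erythroid cells and 6 of 7 for dividing cells, and none of these passed for SCF. Between experiments, 1 of the 2 tested mast cell and basophil markers passed the F test, Cpa3, with means of 5.02, 4.01, 4.34 and 4.82 in BC, D2, E and I (limma adjusted p = 0.0333). Of the 2 tested platelet and megakaryocyte markers 1 passed, Ppbp, with means of 8.26, 7.76, 7.01 and 6.49 (adjusted p = 0.00537). None of the tested markers of the other lists in this count passed that test. Their part in the members' values was not tested.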

How the data were processed

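RNA of 8 cultures was measured on 1 Affymetrix array each. The deposited table gives 1 intensity for each probe set on each array. The submitters' processing notes name RMA, and the values are linear. Its version and any filter were not given. Values were put on a log2 scale as they stood, without a pseudocount or renormalization. Of 41345 probe sets, 23521 had 1 gene symbol in GEO's platform annotation, 1814 several and 16010 none here. All 56 member symbols were found in RefSeq's gene table (GRCm38.p6, used for names and gene order). A further 2 probe sets fit the rule with several symbols and were left out. Probe sets with a symbol and a mean log2 intensity of at least 4.05 were tested, 12668 in all.

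The SCF effect was fitted in limma 3.58.1 (R 4.3.3; lmFit, eBayes) with experiment as a block. Tests were two-sided, and p-values were adjusted by Benjamini-Hochberg over all probe sets tested, at a threshold of 0.05. They measure the spread between these experiments. Experiments were compared by the F test of the same fit. The design text makes the arrays of an experiment a pair, and their deviations from the group means had correlations of 0.461 (BC), 0.405 (D2), 0.425 (E) and 0.362 (I) within a pair. No 2 arrays were identical, and r between arrays lay between 0.9902 and 0.9949. The fit was tested on simulated data.

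The members, gene lists and tests were chosen with earlier results of these data known. Genes were named by role, smallest p, F test, spread between experiments or a shared sign in 4 of 4 experiments, and from each pathway list by the 2 smallest p. Marker genes given as examples, Pf4, Ppbp and Cpa3 among them, were picked after their values were seen. The 14 alternatives are in the closing section.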

Additional observations from a re-analysis of the deposited data

Results flagged for a closer look

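In 3 of 99 sets of 4 values (the SCF arrays, the medium arrays and the 4 differences of each tested member) one value lay far from the others. Chance alone picks out about 1 in 20 such sets. Itgb3 measured 5.83 on the medium array of BC, where the other medium arrays lay between 5.37 and 5.44. Itga1 measured 7.28 on the SCF array of I, where the other SCF arrays lay between 7.46 and 7.48. Itgb7 had an SCF minus medium difference of −0.20 in BC, where the other experiments lay between 0.07 and 0.09.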

How the results depend on the processing

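Under all 14 alternatives 0 members and 0 probe sets were called for SCF against medium (limma, and the plain paired statistic, whose smallest adjusted p over all probe sets was 0.0800). Members at an unadjusted p under 0.05 numbered 3 (Itgb3, Tspan32 and Tspan5), and which genes these were also changed. There was 1 at the stricter filter (Tspan33, higher with SCF, of 24 tested), 0 with no replicate block, 1 with the plain paired statistic (Itga1) and 0 to 3 when 1 experiment was left out, 0 without BC and 1 without E (Itgb3). There were 4 with no filter (Tspan2os added), after repeated quantile normalization (Tspan33 added) and with the variance trend (Cd53 and Tspan33 added, Tspan5 lost). The share of all probe sets at that mark is given for the main fit only (4.21%), so these counts have no share of their own setting beside them. The replicate block changed no call. The median difference of the members ranged from −0.05 to −0.01, and their number below 0 from 21 (without BC) to 28 (array medians equalized) of 33. Equal array medians moved the median of all probe sets from 0.00077 to −0.02. Between experiments, 424 probe sets were called, but 194 with no filter, 1396 at the stricter filter, 1527 with the variance trend and 38 to 177 without 1 experiment, 38 without E. Members called numbered 0, but 7 at the stricter filter, 9 with the variance trend and 2 each after a repeated quantile normalization and for the mean of a gene's probe sets, Tspan13 and Tspan33 in both. Of all probe sets 22% were called at the stricter filter, 12.1% with the variance trend and 3.66% after the quantile normalization. For the mean of a gene's probe sets 481 of 11232 genes were called. With the array medians equalized Itgb7 turned to −0.0094 and Tspan13 to −0.0088, and Cd9 turned to 0.0027 as the mean of its probe sets. Leaving out 1 experiment turned the fitted difference of 31 of 33 members or moved it by over 1.5 times (BC in 22 members, D2 in 19, E in 13, I in 16). The share over all probe sets was not computed, so the count does not set the members apart. Among the named members that turned, Itgal ranged from −0.210 to 0.029, Itgb2 from −0.059 to 0.022, Itgae from −0.058 to 0.021, Cd151 from −0.080 to 0.031, Tspan13 from −0.012 to 0.035, Itgb7 from −0.016 to 0.080, Cd82 from −0.051 to 0.021, Itga6 from −0.070 to 0.063 and Itga5 from −0.073 to 0.041. The causes were not tested. Signal over background is unknown.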

Other observations

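Across the 8 arrays some members of different families had nearly parallel or opposed levels. Among the 528 pairs of tested members Pearson's r ranged from −0.97 to 0.98. Cd151 followed Itgb2 at 0.98 and Tspan5 followed Cd53 at 0.94, while Cd53 and Itga4 were opposed at −0.97 and Icam1 and Itgae at −0.90. These pairs were picked as extremes, and the 8 points share 4 experiments, so no test was made.

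The antisense transcript Tspan2os was dim, well under the filter, yet its SCF arrays (2.80, 2.82, 2.83 and 2.76) all lay below its medium arrays (2.94, 3.01, 2.92 and 2.96). Being under the filter, it was not tested in the main fit. How many dim probe sets have groups that lie apart in this way was not counted. The 3 genes Cd9, Itgav and Icam5 had a second probe set, each below the filter, and their mean differences were 0.02 for Cd9, 0.03 for Itgav and 0.05 for Icam5.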
